A study of Mus musculus with 2 samples.

Results

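Arterial endothelial nuclei are the nuclei of the cells that line arteries and arterioles, and 141 of them were found among 18066 nuclei of mouse heart. They were chosen by their counts of unique molecular identifiers (UMIs, each standing for 1 captured RNA molecule): at least 2 UMIs of Sema3g, Gja5 and Gja4 together, at least 2 of the endothelial genes Pecam1, Flt1, Ptprb and Cdh5 together, and a sum of the first 3 genes no smaller than the sum of the marker genes of endocardial, capillary, lymphatic or pericyte nuclei. Arterial endothelium is set apart from capillary and venous endothelium by Notch signalling, in which Jagged and Delta-like ligands on a cell act on receptors of its neighbours, and by transcription factors such as Sox17. It bears the pressure and shear of flowing blood, lies on elastic fibres and is coupled by gap junctions, which Gja5 and Gja4 help to build. Sema3g encodes a secreted semaphorin, a guidance cue of growing nerves and vessels.

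The nuclei came from hearts of male C57BL/6 mice that were aged 8 weeks when treatment began. Control mice received PBS, and the PD-1 inhibitor mice received an anti-mouse PD-1 antibody (InVivoPlus, Bioxcell) into the peritoneum at 5 mg/kg on days 1 and 14 of a 28-day cycle. PD-1 is an inhibitory receptor of T cells that is blocked in cancer treatment, and the study asked how its blockade affects the heart. Each condition had 1 single-nucleus library, and the number of hearts in a library was not given in the sources used here.

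With 1 library per condition there was no replicate check, no test was made, and each difference between conditions is a difference between a pair of libraries. All intervals in brackets are 95% intervals, exact Poisson for levels, exact Clopper-Pearson for shares and exact conditional binomial for ratios. They cover counting error only, and UMIs of a gene that cluster in a few nuclei make them too narrow.

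The Control library held 10114 nuclei with 12984180 UMIs and the PD-1 inhibitor library 7952 nuclei with 10834570 UMIs, once those with more than 20% mitochondrial UMIs had been removed. Of these, 74 and 67 were arterial, with 101632 and 123608 UMIs. The median arterial nucleus held 1165.5 UMIs of 752 genes in the Control library and 1378 UMIs of 844 genes in the PD-1 inhibitor library. For other endothelial nuclei the median was 1043 and 1082 UMIs. The libraries shared 48 cell barcodes, 3 of which belonged to an arterial nucleus in either library, and none was arterial in both.

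The arterial share of all nuclei was 0.732% (0.575 to 0.918) in the Control library and 0.843% (0.654 to 1.07) after PD-1 inhibitor treatment, a ratio of 1.15 (0.815 to 1.62). Among endothelial nuclei their share was 2.48% (1.96 to 3.11) and 2.65% (2.06 to 3.35), a ratio of 1.07 (0.754 to 1.50). A difference in abundance was therefore not detectable at this depth. The order of the libraries turned when every nucleus was first drawn down to 500 UMIs, which left 34 Control and 19 PD-1 inhibitor nuclei and a ratio of 0.711 (0.383 to 1.28) of all nuclei. It also turned with no change of depth, to 0.900 (0.539 to 1.48) without nuclei holding a UMI of the other marker lists of the rule. The order of the libraries is therefore not settled.

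The values that chose the nuclei are a description and carry no weight as a finding. Sema3g (ENSMUSG00000021904, chr14:31217860-31230352 on GRCm38) had 121 UMIs in the Control and 107 in the PD-1 inhibitor arterial nuclei, or 1191 and 866 CPM (UMIs of a gene per 1000000 UMIs of all genes). Gja5 (ENSMUSG00000057123, chr3:96904693-97077416) had 61 and 56 UMIs, and Gja4 (ENSMUSG00000050234, chr4:127311421-127314039) 67 and 76. The 3 genes rarely met in a nucleus: 6 Control and 4 PD-1 inhibitor nuclei held all of them. Sema3g alone chose 21 and 11 nuclei, Gja5 alone 5 and 4, and Gja4 alone 16 and 20.

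Across the threshold, Eln was higher with each step of the sum. The 67 Control nuclei with a sum of 1 that met every other criterion had 1470.1 CPM of Eln, the gene of elastin, against 2083 in the 31 nuclei with a sum of 2 and 3115 in the 43 with a larger sum. In the PD-1 inhibitor library the level was 1506 in 52 nuclei with a sum of 1, 2330.1 in 31 with a sum of 2 and 3409 in 36 above it, and the other endothelial nuclei stood at 609 and 638. The summed list of known arterial genes had no such order in the PD-1 inhibitor library, at 6140.5 CPM with a sum of 1, 10053 with 2 and 8154 above it. Nuclei left out by the rule thus had more Eln than the other endothelium.

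Arterial genes outside the rule were high in the chosen nuclei, which fits the label for the population as a whole. Of 1011 genes with enough UMIs to compare (at least 50 observed or expected), 88 (8.7%) were at least 2-fold higher in arterial than in other endothelial nuclei of both libraries and 50 (4.95%) at least 2-fold lower. Without the arterial nucleus holding most UMIs of each gene, 49 of 873 comparable genes were higher and 67 lower. No nucleus was taken from the other endothelial side. This step thus favours lower ratios by construction and cannot weigh the higher count against the lower. The lower count was 29 with at most 5% mitochondrial UMIs and 27 with means over nuclei. Of 10 comparable genes on a list of known arterial genes, 6 were at least 2-fold higher with all nuclei kept. Of the 10, 9 were higher and 1 lower in both libraries. The summed list held 8846 and 8972 CPM in arterial and 5872 and 7195 in endocardial-gated nuclei. Tm4sf1, its most abundant gene, was lower in arterial than in endocardial-gated nuclei, at -0.47 and -0.45. Sox17, a SOXF transcription factor of arterial fate, had 403 (289 to 547) and 421 (314 to 552) CPM against 46.7 and 47.7 in other endothelial nuclei, log2 differences of 3.12 (2.58 to 3.61) and 3.15 (2.66 to 3.60). It had a UMI in 28.4% and 35.8% of arterial nuclei, and in 0.714% and 0.537% of macrophage-gated nuclei, whose median depth was 986 and 1031.5 UMIs.

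Notch ligands were higher in arterial nuclei. Jag1 (chr2:137081456-137116644) was higher than in other endothelial nuclei by a log2 difference of 2.86 (2.44 to 3.25) in the Control and 2.79 (2.37 to 3.17) in the PD-1 inhibitor library, Jag2 by 3.28 (2.80 to 3.71) and 2.62 (1.96 to 3.20), and Dll1 by 2.39 and 1.44. These 3 ligands were the members past 2-fold among 9 comparable genes of the Notch pathway, beside 8.7% of all genes. The medians of the 9 were 0.64 and 0.22, beside 0.10 and 0.14 over all genes. The Notch target Hey1, with 16 and 19 UMIs, had log2 differences of 1.88 (1.00 to 2.58) and 2.05 (1.24 to 2.72).

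The list of elastic fibre and large-artery matrix genes is called the elastic fibre list here. It had the largest difference in both libraries among the 23 pathway lists, when summed. Mgp was its most abundant gene, with 1105 UMIs over both libraries, where the list held 1553 and 2347. Of 11 comparable genes, 7 were at least 2-fold higher, beside 8.7% of all genes. All 11 were higher in both libraries, with medians of 1.90 and 2.05. Eln (ENSMUSG00000029675, chr5:134702593-134747323) reached 2696 (2386 to 3035) and 2945 (2650.0 to 3263) CPM, with a UMI in 68.9% and 67.2% of arterial nuclei against 12.1% and 11.4% of macrophage-gated nuclei. Fbln5, a fibulin that helps to assemble elastin, was higher by 3.32 (2.88 to 3.73) and 3.81 (3.46 to 4.15), and Mgp, an inhibitor of vessel wall calcification, by 1.81 and 1.63. Gkn3 and Stmn2, both fixed on this list, were higher by 4.48 and 5.51 and by 3.18 and 3.12.

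**Figure D1:**
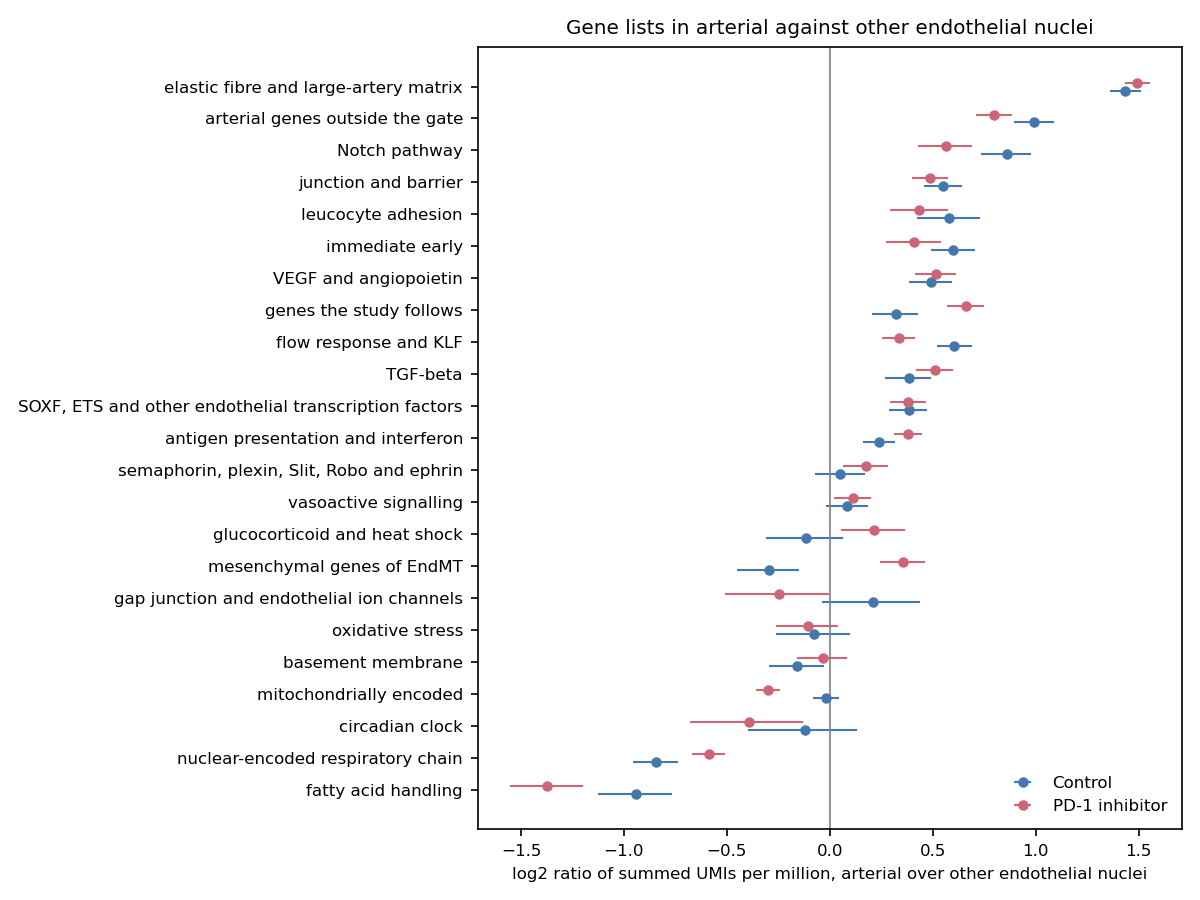
Summed level of each of 23 pathway lists in arterial over other endothelial nuclei (x axis, log2 ratio of CPM), with 1 point and 95% counting interval per library. The elastic fibre and large-artery matrix list lies farthest right at 1.44 and 1.49, and fatty acid handling farthest left at -0.94 and -1.37. The VEGF list and the genes the study follows hold Ptprb or Pecam1, which the rule required.

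Transcription factors other than Sox17 included Prdm16 (2.78 and 2.71), Epas1, an oxygen-responsive factor (1.90 and 1.27), and Mecom (1.43 and 1.30). They were the 4 past 2-fold among 17 of the SOXF, ETS and other endothelial factors, beside 8.7% of all genes. Of 18 flow response genes 14 were higher in both libraries. The summed list held 11660 and 10501 CPM in arterial nuclei, beside 9913 and 10450 in endocardial-gated nuclei. Only Acvrl1, a receptor of the BMP pathway, passed 2-fold, at 2.03 and 1.73, beside the same 8.7%. The flow-induced factor Klf2 differed by 1.05 (0.83 to 1.27) in the Control and 0.59 (0.34 to 0.83) in the PD-1 inhibitor library.

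Vasoactive genes were mixed. The constrictor peptide gene Edn1 was higher by 2.32 and 2.54 and Ace, the angiotensin-converting enzyme, by 2.18 and 2.52, and they were the only 2 past 2-fold of 15, beside 8.7% of all genes, a share to set against the list counts that follow. Cldn5, a tight junction claudin, was higher by 3.21 (2.82 to 3.57) and 3.09 (2.70 to 3.46), and with Podxl made 2 of 15 junction genes, 11 of which were higher in both libraries. Vcam1, which binds leucocytes, was 1 of 4 adhesion genes past 2-fold, at 1.01 and 1.06. Its PD-1 inhibitor value turned to -0.49 without nuclei holding a UMI of the other endothelial or pericyte markers of the rule. The adhesion list summed to 3532 and 3560 CPM in arterial and 3361 and 3641 in endocardial-gated nuclei. Ephrin ligands Efna1 (1.87 and 1.18) and Efna5 (2.36 and 2.39) were 2 of 13 guidance genes past 2-fold, and Nrp2 (-3.05 and -1.77) was on the other side.

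Growth factor genes varied. Vegfc, a ligand of lymphatic and arterial growth, was higher by 1.96 and 1.50 and was the 1 of 7 VEGF and angiopoietin genes past 2-fold upwards, while Nrp2 was the 1 downwards. Against capillary nuclei alone, the PD-1 inhibitor value of Vegfc turned to -0.12. Bmp4 (2.40 and 2.92) and Acvrl1 were 2 of 9 TGF-beta family genes past 2-fold. That list summed to 6838 and 8543 CPM in arterial and 7494 and 8148 in endocardial-gated nuclei. Among 11 basement membrane genes 1 was, the laminin chain Lama5 at 1.77 and 1.36, and 7 were lower in both libraries.

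Genes outside any list that led the comparison were Mannr, a long noncoding RNA next to Mecom (4.40 and 4.08), Atp2a3, a calcium pump of the endoplasmic reticulum (3.85 and 3.10), and Pcsk5, a proprotein convertase (2.63 and 2.35). Arl15 was among them too (2.30 and 2.90), with 36 of its 193 PD-1 inhibitor UMIs in 1 nucleus.

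The summed fatty acid handling and respiratory chain lists were lower in arterial than in other endothelial nuclei. Of 6 fatty acid handling genes 3 were at least 2-fold lower, beside 4.95% of all genes: Cd36, the fatty acid transporter (-1.75 and -1.60), Fabp5 (-2.65 and -2.55) and Lpl, lipoprotein lipase (-1.55 and -2.27). Their list had medians of -1.34 and -1.74. It summed to 2548 and 2120 CPM in arterial nuclei, 2440 and 2982 in endocardial-gated and 2810 and 2655 in lymphatic-gated nuclei. Capillary-gated nuclei held 11066 and 14516, so the low level was not particular to arterial nuclei. Of 23 nuclear-encoded respiratory chain genes none passed 2-fold and 22 were lower in both libraries, with medians of -0.74 and -0.58. Cardiomyocyte markers were lower in the same comparison, by -1.62 and -1.60. Cardiomyocyte-gated nuclei held 28282.7 and 40273.5 CPM of the respiratory chain list. Arterial nuclei held 6819 and 10784, and endocardial-gated nuclei 8322 and 10442. The part of cardiomyocyte RNA in the lower lists was not tested.

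In the remaining lists few genes passed 2-fold. Among 12 antigen presentation and interferon genes 1 passed 2-fold (Ly6e), among 10 immediate early genes 1 (Junb), although 8 were higher in both libraries with medians of 0.68 and 0.55. The PD-1 inhibitor value of Junb turned to -0.14 without nuclei holding a UMI of the other marker lists of the rule. No gene passed 2-fold among 4 oxidative stress genes, 4 glucocorticoid and heat shock genes, 7 mitochondrially encoded genes and the single comparable gene of the circadian clock and of the gap junction and ion channel list. Of 8 mesenchymal genes 1 was higher (Fn1, fibronectin) and 3 lower, beside 4.95% of all genes lower, and of 5 genes the study follows 1 was higher (Fn1) and 1 lower (Col3a1). Those genes were picked for their part in the study's own account. The study followed some in these libraries, and others, such as Fn1 and Col3a1, in hearts or cultured cells by separate assays.

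The label held less well for some of the nuclei. The split described here, and the genes named for it, were chosen after the values had been seen. The 16 Control and 20 PD-1 inhibitor nuclei that held Gja4 and no UMI of Sema3g or Gja5 had few UMIs of several other arterial genes, Jag1, Sox17, Fbln5 and Atp2a3 among them, at no lower depth (median 1236 and 1481.5 UMIs against 1155 and 1376 in the rest). They held 20.3% and 30.9% of all arterial UMIs. Yet 0 of the 63 Control UMIs of Jag1 and 7 of the 66 PD-1 inhibitor UMIs lay in them, 0 of 41 and 4 of 52 of Sox17, 0 of 61 and 3 of 107 of Fbln5, and 0 of 67 and 0 of 50 of Atp2a3. A level of 145 CPM, or 3 UMIs, was the least that the 16 Control nuclei could be relied on to show.

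Elastin showed the same split. Eln stood at 824 (480.2 to 1320) and 602 (382 to 904) CPM in the nuclei with Gja4 alone, against 3173 (2796 to 3585) and 3992 in the other arterial nuclei and 682 and 663 in endocardial-gated nuclei. The elastic fibre list was lower there by a log2 difference of -1.32 (-1.59 to -1.08) in the Control and -1.85 (-2.04 to -1.66) in the PD-1 inhibitor library. Cldn5 had 2 of 75 and 3 of 78 UMIs in these nuclei, and Vegfc 1 of 68 and 2 of 49. The gap in expression of the junction list was smaller, at -0.67 and -0.58.

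Other genes were high in the nuclei with Gja4 alone. Emcn, a sialomucin that marks capillary, venous and endocardial endothelium, had 1212 (784 to 1789) and 1991 (1568 to 2492) CPM there, 247 and 339 in the other arterial nuclei, and 1504 and 1423 in endocardial-gated nuclei. Epha7, an ephrin receptor, had 7 of its 9 Control and 68 of its 70 PD-1 inhibitor UMIs there, and Fgf14, a modulator of sodium channels, 13 of 14 and 52 of 56. Few nuclei carried them, 4 and 8 for Epha7 and 3 and 6 for Fgf14, and 1 PD-1 inhibitor nucleus held 43 and 23 of these UMIs. Npr3, which marks endocardium, had 7 of 9 and 12 of 15 UMIs there, but the rule itself limited its level. These nuclei are called by their leading gene only.

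Fibroblast markers were also higher there, by a log2 difference of 1.87 (1.48 to 2.26) and 1.24 (0.95 to 1.53), to 5188 and 5317 CPM. Endocardial-gated nuclei held 4328 and 5652, and Dcn, a matrix proteoglycan, was the most abundant gene of the list. The part of RNA from other cells in this was not tested. The mesenchymal list was higher by 1.20 (0.88 to 1.51) and 0.63 (0.41 to 0.85), with Fn1 at 1212 and 2017 CPM against 432 and 574. Efnb2, an arterial ephrin ligand, was not lower there: its log2 difference was 1.00 (-0.07 to 1.95) and 1.04 (0.16 to 1.92).

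The summed list of known arterial genes differed less evenly. It was lower in the Gja4-alone nuclei by -0.99 (-1.30 to -0.69) in the Control library and by -0.06 (-0.25 to 0.13) in the PD-1 inhibitor library. Tm4sf1, its most abundant gene with 549 UMIs, was higher in these nuclei, by 0.50 and 0.75. Without the Gja4-alone nuclei, 99 genes were at least 2-fold higher in arterial than in other endothelial nuclei and 49 lower. These counts are over the 649 genes that still had enough UMIs.

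**Figure D2:**
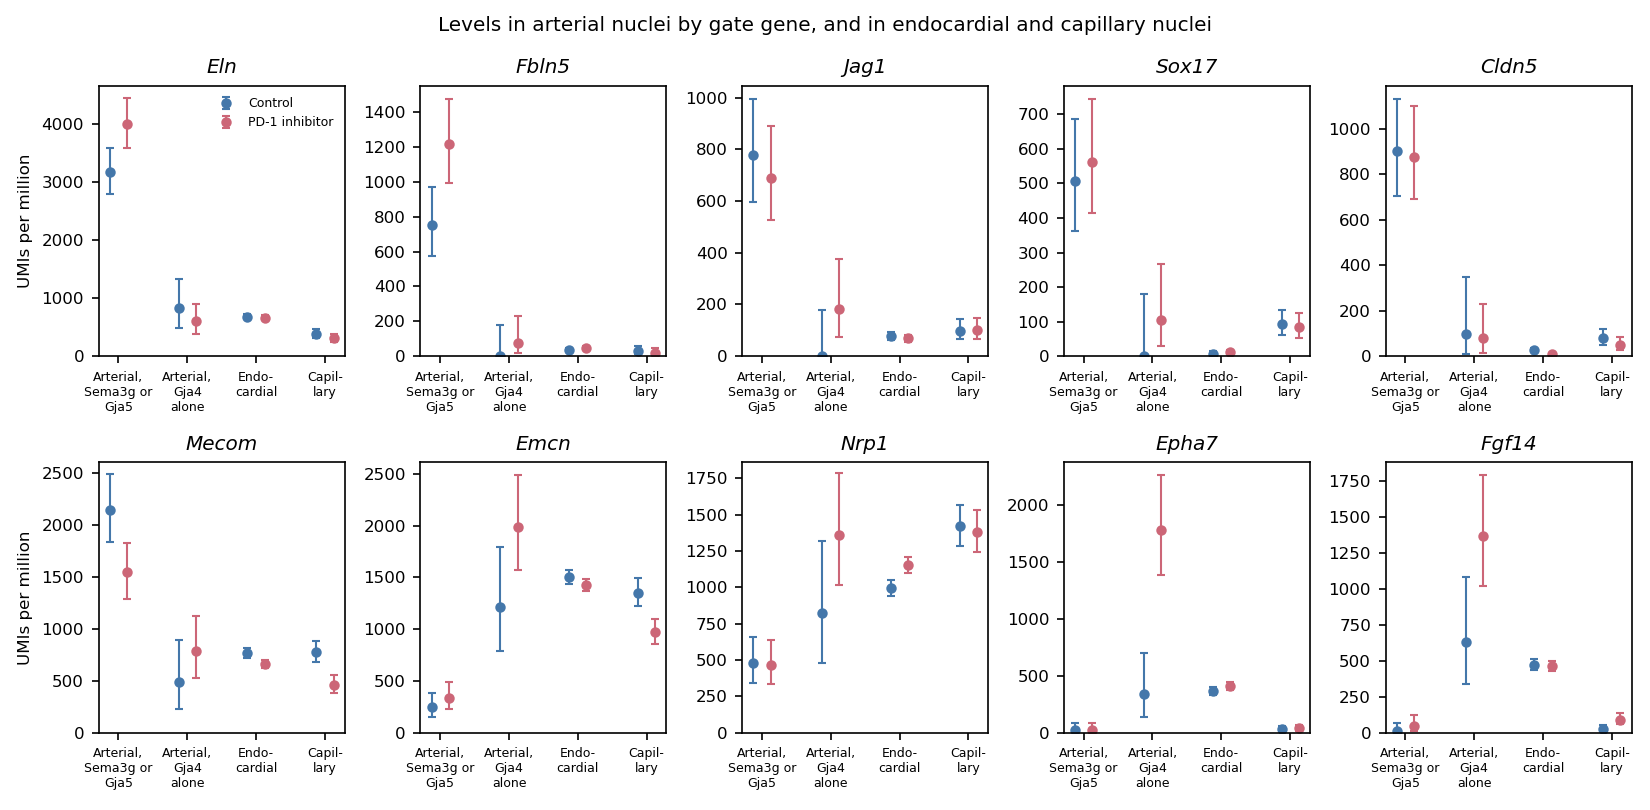
CPM (y axis) of 10 genes in arterial nuclei with Sema3g or Gja5, in arterial nuclei with Gja4 alone, and in endocardial- and capillary-gated nuclei, 1 point per library with its 95% Poisson interval. The upper 5 genes and Mecom are high in the first group, while Emcn, Nrp1, Epha7 and Fgf14 are higher in nuclei with Gja4 alone, the last pair resting on few nuclei.

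The elastic fibre list was higher in nuclei with a UMI of Gja5, while the basement membrane list and Fn1 were not. The elastic fibre list was higher in the 31 Control and 30 PD-1 inhibitor nuclei with Gja5 than in the other arterial nuclei, by 1.30 (1.15 to 1.46) and 1.30 (1.17 to 1.43). The basement membrane list differed by -0.35 (-0.63 to -0.07) and 0.01 (-0.23 to 0.25), and Fn1 was lower, by -0.84 and -1.46. Eln stood at 4501 and 4209.8 CPM with Gja5 and at 1177 and 1591 without it. Vwf, the von Willebrand factor, was higher by 1.31 (0.77 to 1.89) and 1.04 (0.54 to 1.57). The leucocyte adhesion list, whose most abundant gene is Vwf itself, was higher by 0.61 and 1.08. Capillary genes outside the rule went the other way, at -1.91 (-2.54 to -1.36) and -1.70 (-2.30 to -1.15), and so did fatty acid handling genes, at -0.75 and -1.05. Median depth was 1172 and 1827.5 UMIs with Gja5 and 1165 and 1255 without it. Other signals moved with this split as well: mitochondrially encoded UMIs were higher by 0.79 and 0.35, fibroblast markers lower by -1.05 and -0.85, and cardiomyocyte markers differed by 0.43 and -0.97. With Sema3g the elastic fibre list was higher too, by 0.75 (0.58 to 0.93) and 1.49 (1.35 to 1.64), but Vwf was not (-1.32 and 0.07).

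The splits by gate gene use the values that chose the nuclei and are given as a description. The summed Notch list differed little with Gja5, at 0.17 (-0.07 to 0.41) and 0.10 (-0.16 to 0.36), although 17 of the 18 Control and 12 of the 14 PD-1 inhibitor UMIs of the ligand Dll4 lay in nuclei with Gja5. With Sema3g it was higher, by 0.69 (0.41 to 0.98) and 0.44 (0.18 to 0.71), and the junction list by 0.57 and 0.56. Other lists turned between the libraries with Sema3g: leucocyte adhesion (-0.48 and 0.50), immediate early (-0.40 and 0.89) and known arterial genes (0.64 and -0.20). The Gja4-alone nuclei belong to the group without Sema3g and also to the group without Gja5.

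The number of genes that differed between the libraries depended on the choices made. Of 849 genes with at least 50 UMIs, 31 (3.65%) were at least 2-fold higher in the PD-1 inhibitor arterial nuclei and 26 (3.06%) at least 2-fold lower, around a median log2 difference of -0.01. A minimum of 20 UMIs gave 246 and 204 of 2929 genes, and UMIs of at least 2 of the 3 chosen genes gave 8 and 2 of 254. In the other endothelial nuclei 22 of the 31 went the same way and none passed 2-fold, while all 26 went the same way and 3 passed 2-fold. Of all 849 genes, 372 were higher in the other endothelial nuclei. Without the nuclei that held Gja4 alone, 21 of the 31 and 18 of the 26 were still past 2-fold. These nuclei held a larger share of the arterial UMIs in the PD-1 inhibitor library, and their part in each difference was not tested beyond that count.

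The higher genes were led by Epha7, with 9 Control and 70 PD-1 inhibitor UMIs, or 88.6 (40.5 to 168) and 566 (441 to 716) CPM. Its log2 difference was 2.61 (1.67 to 3.86), but 43 of the 70 UMIs lay in 1 nucleus. Fgf14 rested in part on 1 nucleus too, with 23 of 56 UMIs against 14 in the Control library. Both are genes of the Gja4-alone nuclei.

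Pam and Bmp6 rested less on a single nucleus. Pam, which amidates secreted peptides, had 68 and 203 UMIs, 669 (519.6 to 848) and 1642 (1424 to 1884) CPM, and a log2 difference of 1.29 (0.89 to 1.71) beside 0.23 in other endothelial nuclei. Bmp6, a BMP ligand, had 27 and 92 UMIs and a difference of 1.47 (0.85 to 2.16), beside 0.31, with 11 of the 27 and 54 of the 92 in Gja4-alone nuclei. Atp5b, a subunit of ATP synthase, had 15 and 68 UMIs (1.86, 1.08 to 2.81, beside 0.42). Also among the 10 highest were Rps6ka2, Gabarapl1, Vps13b, Ppp1r13b and Tpm1.

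The lower genes were led by immediate early genes, which respond within minutes to stimuli and to the handling of tissue. Junb had 48 Control and 17 PD-1 inhibitor UMIs, a log2 difference of -1.75 (-2.67 to -0.96), and it differed by -1.72 in the other endothelial nuclei. Ccn1 had 55 and 21 UMIs (-1.65, beside -2.23) and Dusp1 56 and 24 (-1.49, beside -1.19). All 9 immediate early genes with enough UMIs were lower, 3 of them past 2-fold, beside 3.06% of all genes, with a median of -0.84 in arterial and -0.78 in other endothelial nuclei. Fos, under the minimum of 50 UMIs, had 42 and 2 UMIs, a difference of -4.37 (-7.77 to -2.73). The summed list was also lower in smooth muscle nuclei (4879 and 2305 CPM), whereas in capillary-gated nuclei it was not (3813 and 3959 CPM).

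Adamts1, a secreted metalloproteinase, was lower in arterial nuclei, with 160 and 78 UMIs and 1574 (1339.8 to 1838) and 631 (499 to 787) CPM. Its difference was -1.31 (-1.73 to -0.92), beside -0.21 in other endothelial nuclei. Slc6a6, a taurine transporter, had 44 and 19 UMIs (-1.47, beside -0.01), and Adgre5, Mef2c, Nufip2, Dock1 and Car8 completed the 10 lowest.

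The summed Notch list had a lower level after PD-1 inhibitor treatment. Of its 24 genes, 9 had enough UMIs, and the median difference over all genes was -0.01. Of these 9 genes 8 were lower, and 3 were at least 2-fold lower, beside 3.06% of all genes. The 3 were the ligand Jag2 with 53 and 28 UMIs (-1.19, -1.92 to -0.52), Numb, which restrains the receptors, with 54 and 29 (-1.17), and the protease Adam10, which cleaves them, with 60 and 35 (-1.05). The median of the 9 was -0.89, beside -0.18 in the other endothelial nuclei, and the summed list differed by -0.49 (-0.67 to -0.32), beside -0.20. Jag1 differed by -0.22 (-0.74 to 0.31), and Notch1 was higher, by 0.84 (0.27 to 1.45). The pathway thus did not move as a unit.

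The TGF-beta and mesenchymal lists had higher sums in the PD-1 inhibitor library. Of 8 TGF-beta family genes 2 were at least 2-fold higher, beside 3.65% of all genes, Bmp4 (1.12, 0.57 to 1.73) and Bmp6, and the summed list differed by 0.32 (0.18 to 0.46), beside 0.19. Of 5 mesenchymal genes 1 was, Vim, an intermediate filament gene, with 119 and 330 UMIs, but 128 of the 330 lay in 1 nucleus. Its difference of 1.19 turned to -1.15 once nuclei with markers of other cell types were removed, which left 17 Control and 14 PD-1 inhibitor arterial nuclei. Fn1 had 60 and 126 UMIs, a difference of 0.78 (0.33 to 1.26), beside 0.01, and Fn1 and Bmp4 were lower (-0.28 and -0.26) when UMIs of at least 2 of the 3 chosen genes were asked for. Postn, which encodes a matrix protein of fibroblasts, had 23 and 54 UMIs (0.93, 0.22 to 1.72), with 13 of the Control UMIs in 1 nucleus. The summed mesenchymal list, with 364 and 715 UMIs, differed by 0.69 (0.51 to 0.88), beside 0.04. The 128 Vim UMIs of 1 nucleus are among the 715. Fibroblast markers differed by 0.55 (0.31 to 0.79), beside 0.31. The part of fibroblast RNA in the mesenchymal sum was not tested.

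Genes that the study follows included Tcf12, a helix-loop-helix factor, with 38 and 73 UMIs (0.65, 0.07 to 1.27), beside -0.44 in other endothelial nuclei. Tgfb1 had 16 and 28 UMIs (0.51, -0.41 to 1.51), a difference not detectable at this depth. Acta2, a marker of smooth muscle and myofibroblasts, had 3 and 0 UMIs, and Pdcd1, which encodes PD-1 itself, had none. Of the 5 with enough UMIs Vim alone passed 2-fold, beside 3.65% of all genes higher.

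Other lists differed to varying degrees, and their counts stand beside 3.65% of all genes at least 2-fold higher and 3.06% lower. The elastic fibre list was higher by 0.31 (0.22 to 0.41), beside 0.25, with 1 of 11 genes past 2-fold (Gkn3, 14 and 41 UMIs). Nuclear-encoded respiratory chain genes were higher by 0.66 (0.53 to 0.80), beside 0.41, with all 5 comparable genes higher and Atp5b the 1 past 2-fold. Cardiomyocyte markers were higher in the same nuclei, by 0.35 (0.16 to 0.55), and their part in this was not tested. The gap junction and ion channel list was lower by -0.47 (-0.82 to -0.13), beside -0.02, with 1 comparable gene. Antigen presentation genes were higher by 0.19 (0.09 to 0.29), beside 0.05, and 1 of 12 passed 2-fold, H2-Ab1, with 17 of its 36 PD-1 inhibitor UMIs in 1 nucleus and a lower level (-0.08) without the Gja4-alone nuclei. Known arterial genes differed by 0.02 (-0.11 to 0.15), with 1 of 10 lower (Jag2), flow response genes by -0.15 (-0.27 to -0.04), with none of 18, and mitochondrially encoded genes by -0.08 (-0.16 to 0.00).

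**Figure D3:**
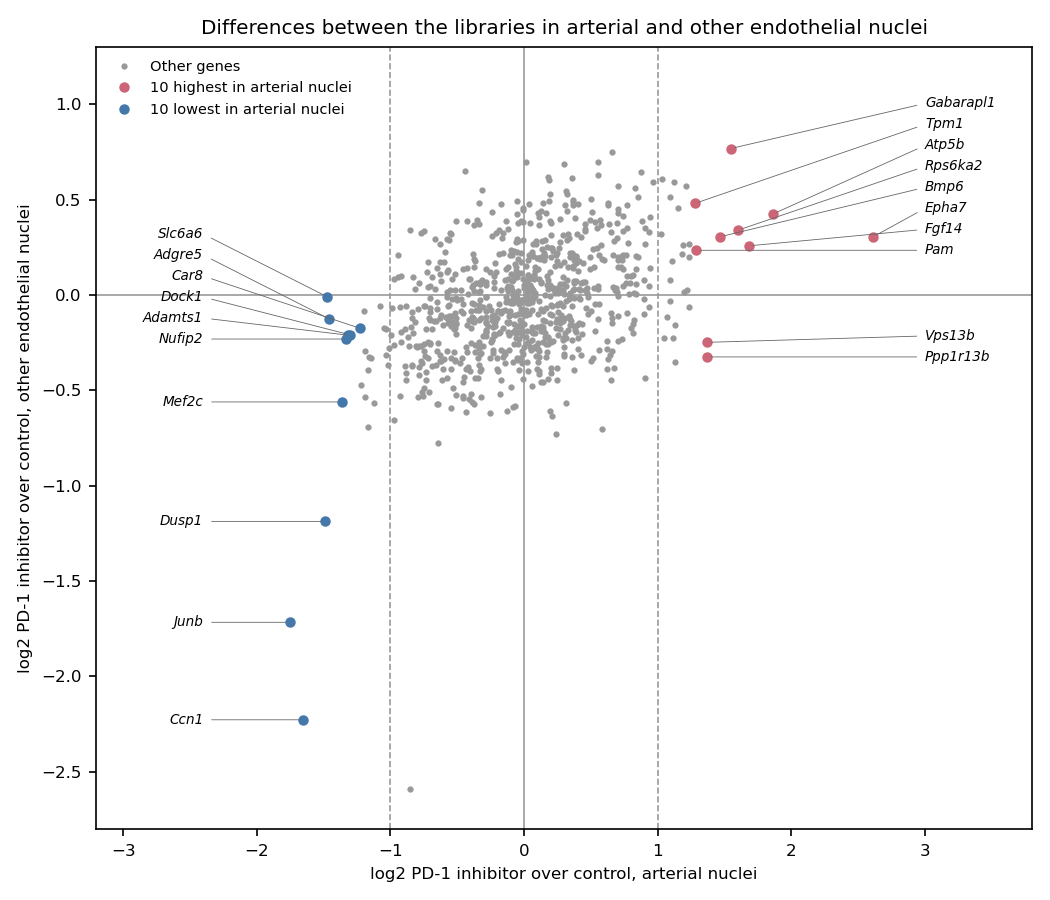
Log2 ratio of PD-1 inhibitor over Control level in arterial nuclei (x axis) and in other endothelial nuclei (y axis), 1 point for each of 849 genes, with dashed lines at 2-fold. Junb, Ccn1 and Dusp1 are low on both axes, whereas the 10 highest genes of the arterial nuclei lie between -0.32 and 0.77 on the y axis.

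Markers of other cell types were present, and 95.9% and 95.5% of arterial nuclei held a UMI of the cardiomyocyte list. Cardiomyocyte markers summed to 3523 and 4490.0 CPM, beside 10840.0 and 13663 in other endothelial nuclei, and 9 of 10 were at least 2-fold lower, with Myh6 the most abundant at 158 UMIs. Fibroblast markers summed to 2184 and 3196, beside 4819.8 and 5986, with 2 of 5 at least 2-fold lower and Dcn, at 82 and 232 UMIs, the most abundant. Smooth muscle markers, of interest because that muscle wraps arteries, summed to 561 and 445, beside 1046 and 1218, with Cnn1 and Lmod1 at 0 and Pln, also a cardiomyocyte gene, holding 79 of the UMIs. Their part in the results was not tested.

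Markers of macrophages, T cells and several stromal cells were few. Macrophage markers summed to 462 and 194 CPM, with Mrc1 the most abundant at 16 UMIs, and T cell markers to 88.6 and 8.09, with Cd3d, Cd3g, Il7r, Lck and Cd247 at 0. Pericyte markers outside the rule summed to 78.7 and 146 with Cspg4 at 0, mesothelial to 167 and 72.8, adipocyte to 49.2 and 0, and glial to 0 and 8.09. Proliferation genes had 5 and 22 UMIs with Top2a at 0, each set of UMIs in 1 nucleus.

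Markers of neighbouring endothelium outside the rule were informative. Capillary markers summed to 1683 and 1149 CPM, log2 differences of -1.01 (-1.24 to -0.79) and -1.67 (-1.93 to -1.44) from the other endothelium, and lymphatic markers to 138 and 162 with Ccl21a at 0. Venous markers held 3031 and 3430.2, beside 2448 and 3035, and 4297 and 4911 in endocardial-gated nuclei, with Vwf the most abundant at 281 UMIs. Of 5 comparable venous markers 2 were higher and 3 lower in both libraries, with medians of -0.29 and -0.14. Endocardial markers held 3896 and 5161, beside 3690.0 and 4348, and 7332 and 7448 in endocardial-gated nuclei. Of the arterial UMIs 500 were Cytl1, which was higher in arterial nuclei by 1.63 (1.40 to 1.86) and 1.55 (1.38 to 1.71). It was the 1 of 5 comparable endocardial markers past 2-fold upwards, beside 8.7% of all genes. Of the 5, 3 were lower in both libraries, 2 of them at least 2-fold, beside 4.95% of all genes. Their medians were -1.06 and -0.38. General endothelial genes outside the rule differed by 0.13 and 0.16.

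The promoters of the 3 genes that chose the nuclei are shown because the nuclei chosen by Gja4 alone differed from the other arterial nuclei. Sequences are from RefSeq for GRCm38.p6 and run from 250 bases before to 50 after the start of the gene in RefSeq, which for Gja5 lies inside the longer gene span given above, 5′ to 3′ on the strand of the gene, at chr14:31217623-31217922 on the plus strand for Sema3g, chr3:97032152-97032451 on the plus strand for Gja5 and chr4:127313990-127314289 on the minus strand for Gja4. All 3 genes had an entry. Capitals mark matches on either strand to TGGGAA (letters of the Notch effector RBPJ), ACAAT (SOX) and CAGGAA (ETS), held by 25.6%, 31.0% and 30.6% of 32851 promoters of this length.
Sema3g: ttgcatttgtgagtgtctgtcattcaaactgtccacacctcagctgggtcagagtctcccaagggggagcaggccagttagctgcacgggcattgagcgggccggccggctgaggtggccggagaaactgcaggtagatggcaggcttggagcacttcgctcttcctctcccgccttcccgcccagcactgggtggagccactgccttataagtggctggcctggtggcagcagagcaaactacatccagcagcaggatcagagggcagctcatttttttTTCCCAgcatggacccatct
Gja5: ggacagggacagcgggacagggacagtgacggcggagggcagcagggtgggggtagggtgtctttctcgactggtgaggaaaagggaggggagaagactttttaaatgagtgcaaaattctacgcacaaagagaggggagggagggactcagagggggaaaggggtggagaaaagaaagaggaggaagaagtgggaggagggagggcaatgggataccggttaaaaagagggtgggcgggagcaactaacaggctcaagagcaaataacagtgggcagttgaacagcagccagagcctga
Gja4: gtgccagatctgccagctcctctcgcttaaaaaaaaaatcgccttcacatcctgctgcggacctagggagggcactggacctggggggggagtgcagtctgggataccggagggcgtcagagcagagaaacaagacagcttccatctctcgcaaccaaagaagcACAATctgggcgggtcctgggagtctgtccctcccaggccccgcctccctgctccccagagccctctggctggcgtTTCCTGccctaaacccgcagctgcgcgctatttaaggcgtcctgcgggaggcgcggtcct
The Sema3g promoter held 1 RBPJ match, the Gja4 promoter 1 SOX and 1 ETS match, and the Gja5 promoter none of the 3. Their GC content was 58.7%, 62% and 55.7%. A match is a description of letters, and its absence says only that those letters are not in this window.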

How the data were processed

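The files held the whole-number UMI count of each gene in each nucleus, as deposited by the authors, who made these counts from reads on mouse build GRCm38 (mm10). The program used for alignment and counting is not given in the sources used here. Coordinates are from GENCODE vM21. Nuclei with at most 20% mitochondrial UMIs were kept, doublets included, and arterial nuclei were chosen by the counts of Sema3g, Gja5 and Gja4 under the rule in the report. The members and the 23 pathway and 22 marker lists were chosen with earlier results of these data known. The result of 1 marker list is not reported here. UMIs were summed over nuclei per library and given as CPM. Arterial nuclei were set against other endothelial nuclei within each library, then the libraries against each other, with 0.5 UMI added to each count in log2 ratios. A result counted when it was past 2-fold. Named genes were those of the rule, the 20 highest and 10 lowest against other endothelial nuclei, the 10 highest and 10 lowest between the libraries, members of the lists with the largest ratios or most UMIs, and those said to be chosen later. Intervals were checked on simulated independent Poisson counts, which hold no clustering of UMIs in nuclei, so this check does not cover that. Scanpy 1.11.5, numpy 2.4.6, scipy 1.17.1, pandas 2.3.3, matplotlib 3.10.9 and Python 3.11.15 were used.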

Additional observations from a re-analysis of the deposited data

Results flagged for a closer look

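Some genes differed between the libraries in arterial nuclei and the other way in the other endothelial nuclei, whose log2 difference is given in brackets. The log2 difference of PD-1 inhibitor over Control in arterial nuclei was -0.85 (0.34) for Fabp4, -1.50 (0.22) for Nr2f2, 1.40 (-0.27) for Ccn2, -1.33 (0.26) for Ednrb, 0.65 (-0.44) for Tcf12, -2.40 (0.60) for Tmem100 and -0.41 (0.08) for Pecam1. It was 1.37 (-0.32) for Ppp1r13b, 1.37 (-0.25) for Vps13b, -1.80 (0.33) for Sod1, 1.05 (-0.22) for H2-Ab1, -1.46 (0.21) for Ltbp3 and -0.25 (0.12) for mt-Cytb. Nr2f2, Ccn2, Ednrb, Tmem100, Sod1 and Ltbp3 had fewer than 50 UMIs over both libraries, and 16 of the 17 Control UMIs of Nr2f2 lay in nuclei chosen by Gja4 alone. Pecam1 is a gene that the rule used. The differences of H2-Ab1 and mt-Cytb turned under other choices of nuclei or of averaging. For each of these genes the difference was not tested.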

How the results depend on the processing

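No paired analysis was possible because each condition had 1 library. Single genes are given as log2 values, and where no cause is shown the cause was not tested. With at most 5% mitochondrial UMIs, 29 genes were 2-fold lower than in other endothelial nuclei. Atp5b 0.19, mt-Cytb 0.27 (against other endothelial nuclei in the PD-1 inhibitor library) turned direction. With Scrublet doublets removed, shares and counts of genes stayed within range. H2-Ab1 -0.0616 (against other endothelial nuclei in the PD-1 inhibitor library) turned direction. With an arterial sum of at least 3, shares were 0.425% and 0.453% of all and 1.44% and 1.42% of endothelial nuclei, 32 genes were 2-fold lower than in other endothelial nuclei, and 16 were higher and 17 lower between the libraries. Flt1 0.00703, H2-Ab1 -0.25 (against other endothelial nuclei in the PD-1 inhibitor library), and Vwf -0.12 (against other endothelial nuclei in the Control library), and H2-Ab1 -0.34 (between the libraries) turned direction. With UMIs of at least 2 of the 3 genes, shares were 0.316% and 0.402% of all and 1.07% and 1.26% of endothelial nuclei, and 8 and 2 genes differed between the libraries. Fn1 -0.28, Sema3g 0.0689, Bmp4 -0.26 (between the libraries), and Tm4sf1 -0.24, Epha7 -4.84, Flt1 0.12, Fgf14 -3.59, Bmp6 -0.69, Vps13b -0.20, H2-Ab1 -0.47, mt-Cytb 0.0103 (against other endothelial nuclei in the PD-1 inhibitor library) turned direction. With the arterial sum larger than the others, 19 genes were higher in the PD-1 inhibitor library. Epha7 -0.62, Fgf14 -0.86, Vps13b -0.00641, H2-Ab1 -0.56 (against other endothelial nuclei in the PD-1 inhibitor library), and H2-Ab1 -0.19 (between the libraries) turned direction. With nuclei holding markers of other cell types removed, shares of all nuclei were 1.97% and 2.28%, 12 genes were higher and 2 lower than in other endothelial nuclei, and 1 was higher and 2 lower between the libraries, since 44 and 42 genes had enough UMIs. Vim -0.63, Vcam1 -0.15, mt-Cytb 0.84 (against other endothelial nuclei in the PD-1 inhibitor library), and Vim -1.15, Mgp -0.0589, Myh6 -0.36 (between the libraries), and Flt1 -0.0826, Myh6 0.20 (against other endothelial nuclei in the Control library) turned direction. Thinned to 500 UMIs, shares were 0.336% and 0.239% of all nuclei (ratio 0.711) and 1.73% and 1.15% of endothelial nuclei (ratio 0.664). With means over nuclei, 27 genes were lower than in other endothelial nuclei. mt-Cytb 0.17 (against other endothelial nuclei in the PD-1 inhibitor library), and mt-Cytb 0.0155 (between the libraries) turned direction. With at least 20 UMIs, 161 genes were higher and 135 lower than in other endothelial nuclei, and 246 and 204 between the libraries; with at least 100 UMIs these were 40, 24, 9 and 2, as the minimum sets how many genes are compared. Against capillary nuclei, 136 genes were higher and 113 lower. Epha7 1.63, Flt1 -0.47, Slc6a6 -0.47, Ccn2 2.02, Dcn 0.47, Ednrb 0.59, Fgf14 2.24, Numb -0.16, Npr3 0.86, Rps6ka2 0.60 (in the Control library), and Dcn 1.19, Vegfc -0.12, Ednrb 0.0443, Tmem100 1.09, Npr3 1.19 (in the PD-1 inhibitor library) turned direction. Against endocardial nuclei, the counts of genes stayed within 1.5 times. Fabp4 0.63, Tm4sf1 -0.47, Vwf -0.41 (in the Control library), and Tm4sf1 -0.45, Atp5b 0.23, Fgf14 -0.0236, Tpm1 0.0976, mt-Cytb 0.096 (in the PD-1 inhibitor library) turned direction. The next 3 alternatives were chosen after seeing the data. Without the arterial nucleus holding most UMIs of each gene, 49 genes were higher and 67 lower than in other endothelial nuclei, from which no nucleus was taken. Between the libraries 19 were higher and 17 lower. Fgf14 -0.0191, H2-Ab1 -0.25 (against other endothelial nuclei in the PD-1 inhibitor library) turned direction. With no UMI of the other marker lists of the rule, shares were 0.405% and 0.365% of all and 1.38% and 1.15% of endothelial nuclei, 35 genes were higher and 17 lower than in other endothelial nuclei, and 10 and 7 between the libraries. Vcam1 -0.49, Flt1 0.24, Junb -0.14, mt-Cytb 0.064 (against other endothelial nuclei in the PD-1 inhibitor library), and Numb -0.0789 (against other endothelial nuclei in the Control library), and mt-Cytb 0.12 (between the libraries) turned direction. Without the Gja4-alone nuclei, shares were 0.573% and 0.591% of all and 1.95% and 1.86% of endothelial nuclei. Postn -0.27, Epha7 -2.93, Fgf14 -2.46, H2-Ab1 -0.27 (against other endothelial nuclei in the PD-1 inhibitor library), and H2-Ab1 -0.0766 (between the libraries) turned direction. Setting the median ratio to 0, leaving ribosomal protein and mitochondrial genes out of the totals, and adding 1 UMI changed no share or count of genes past the limits used here and turned no named gene. Centring moved Mgp to 1.48 and mt-Cytb to -0.33 against other endothelial nuclei in the PD-1 inhibitor library. Of 3530 values of named genes under the alternatives, 2880 stayed within the main interval, 581 moved out of it and 69, whose main interval did not include 0, turned direction. A further 291 values had under 20 UMIs and were not given. Gene counts between the libraries moved with the nuclei chosen and with the minimum of UMIs, so depth limits what single genes show there.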
